A study of Mus musculus with 12 samples.

Results

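The livers of RA-treated hepatocyte RXRα-deficient mice (KO_RA) were compared with the livers of untreated wild type mice (WT), a contrast in which diet and genotype differ at the same time. The samples were chosen by their titles, and they make up 6 of the 12 arrays of the series, 3 in each group. The remaining 6 arrays held the single changes, namely wild type mice on retinoic acid (WT_RA, 3 arrays) and RXRα-deficient mice on the normal diet (KO, 3 arrays). With these, each gene could be asked whether the combined change was the sum of its single changes, whether the single changes cancelled, or whether a change was called only when both were combined.

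Each array held liver RNA of 1 mouse, hybridized to an Affymetrix mouse expression array. All mice had a C57BL/6 background. The wild type mice were male and 12 weeks old. For the KO mice on the arrays, the sources used here gave no age and did not state the sex clearly. RA was fed at 150 mg/kg diet for 7 days, and the other mice ate the normal diet. In the KO mice, Cre under the albumin promoter removed the exon that codes for the DNA binding domain of RXRα, so the deletion is one of hepatocytes and a shortened protein that keeps its ligand binding domain is still made. In bulk liver RNA, fewer cells of a type and less RNA per cell cannot be told apart.

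Retinoic acid binds the retinoic acid receptors (RARs), which sit on DNA as heterodimers with a retinoid X receptor. RXRα, the most abundant retinoid X receptor of hepatocytes, is also the partner of PPARα, LXR, FXR, PXR and CAR, the receptors that sense fatty acids, oxysterols, bile acids and foreign compounds. Genes of RA clearance, fatty acid oxidation, bile acid synthesis and drug metabolism are therefore known targets of these heterodimers in liver. A retinoic acid response element is usually a direct repeat of a hexamer.

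Array medians lay between 6.26 and 6.35 log2 units over all 12 arrays, with rank correlations of 0.978 to 0.994 within groups. Signal of the 3' control probe set for Actb was 12.1 to 12.9 on the 6 arrays compared here, but 9.40 on WT_RA 3 and 9.12 on KO 1. The main counts are also given without these 2 arrays. Signal of Rxra, the targeted gene, was 10.82, 10.51 and 10.37 in WT and 10.91, 10.76 and 10.85 in KO_RA. In WT_RA it was 10.49, 10.20 and 9.997, and in KO 10.11, 10.66 and 10.84. The groups overlapped, and whether this probe set lies outside the removed exon was not checked here, so Rxra signal does not test the labels. The 13 hepatocyte markers had a median change of 0.03 log2 units with 0 members called and 1 at an unadjusted p under 0.05 (limma).

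In KO_RA against WT, 382 of 12393 genes were called (3.08% at a limma adjusted p under 0.05). Of these, 142 were higher (1.15% of genes tested) and 240 were lower (1.94%), with 57 and 63 of them changed by more than 1 log2 unit. An unadjusted p under 0.05 (limma) was found for 1934 of the 12393 genes, the background for such counts in single lists. The arrays of both groups did not overlap for 2741 genes (22.1%), and all 382 called genes were among them. By comparison, RA alone (WT_RA against WT) gave 158 called genes (1.27%), and deficiency alone (KO against WT) gave 163 (1.32%). These 3 contrasts share the WT arrays, so that an error in WT moves all of them together. In KO_RA, 62 genes were called against KO (0.5%) and 490 against WT_RA (3.95%). Without WT_RA 3 and KO 1 the count was 494 for the combination, 95 for RA alone, 266 for deficiency alone, 110 against KO and 312 against WT_RA. Over the fits without 1 array it was 47 to 212 for RA alone (lowest without WT 3, highest without KO 1), 51 to 217 for deficiency alone (lowest without WT 2, highest without KO 1), 6 to 77 against KO (lowest without KO 3, highest without WT_RA 3) and 170 to 599 against WT_RA (lowest without KO_RA 1, highest without WT 1). The count of 382 depended on single arrays: it was 232 without WT 1, 162 without WT 2, 159 without KO_RA 1, 229 without KO_RA 2 and 204 without KO_RA 3.

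Whether a combined change departed from the sum of the single changes was tested by the interaction term, that is, the combined change minus the RA change in wild type mice minus the deficiency change on the normal diet. It was called for 1 gene, Obp2a (0.00807%), while 1446 genes had an unadjusted p under 0.05 (11.7%). Without WT_RA 3 and KO 1, 12 genes were called, and 14 were called without KO 1 alone. Among the 382 genes of the combined contrast, 93 had an unadjusted p under 0.05 for the interaction (24.3%), and the combined change departed from the sum in its own direction for 60 and against it for 33. The remaining 289 had an interval that held 0. The precision was limited: over the 382 genes, the 95% interval of the interaction reached a median of 0.41 log2 units to either side, beside a median size of 0.71 for the combined change.

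**Figure D1:**
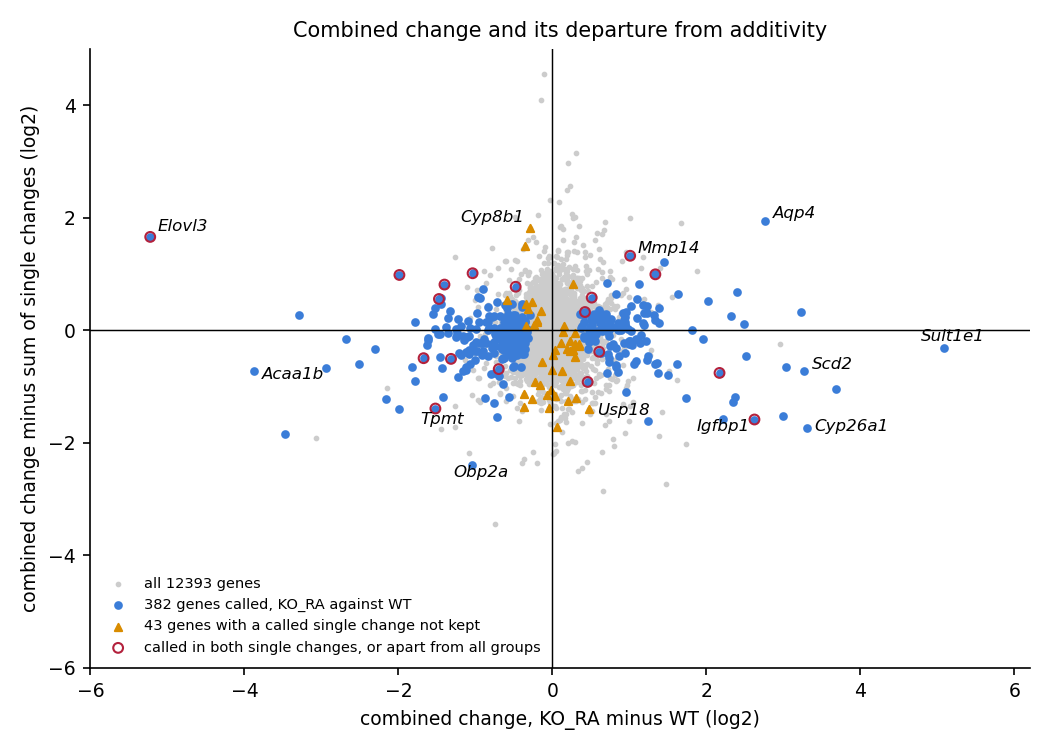
Each point is a gene: the x axis gives the combined change, KO_RA minus WT, and the y axis the combined change minus the sum of the single changes, both in log2 units, so a gene at 0 on the y axis had an additive change. Elovl3 (combined change -5.22) and Igfbp1 (2.62), which were called in both single changes, lie on the side of 0 that means less than the sum, while the 43 genes with a called single change that the combination did not keep (triangles) lie near 0 on the x axis, as their rule requires.

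The 243 genes called in the combined contrast and in neither single contrast (1.96% of genes tested) comprised 86 higher and 157 lower. This class is one of thresholds. Of the 243, 50 had an unadjusted p above 0.05 in both single contrasts, 142 had one of them under 0.05 and 51 had both under 0.05. The interaction had an unadjusted p under 0.05 for 49 of them. Without WT_RA 3 and KO 1 the class held 354 genes, 221 of them shared, and it held 154 without WT 1, 107 without WT 2, and 77, 116 and 115 without KO_RA 1, KO_RA 2 and KO_RA 3. A further 46 genes were called with RA alone as well (31 higher and 15 lower), 80 with deficiency alone (20 higher and 60 lower), and 13 in all 3 contrasts.

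Retinoic acid receptor targets made up the retinoid end of the response. Of the 17 measured, 6 rose (Cyp26a1, Pdk4, Rarb, Trim24, Hoxa5 and Lrat) and 1 fell (Gprc5c), or 41.2% called beside 3.08% of all genes. The median change was 0.29 log2 units against -0.0018 for all genes. Without WT 3 that median was 0.45. Lrat was dim, with a mean below the lower quartile of probe sets in every group. The call of Lrat was absent without WT 2, KO_RA 1 or KO_RA 3 (adjusted p up to 0.0772), and that of Gprc5c was absent in all fits without 1 array except the fit without KO 1 (adjusted p up to 0.179). Cyp26a1, the enzyme that clears RA by oxidation, had a signal of 7.49, 8.36 and 8.11 in WT, 12.54, 12.58 and 12.37 in WT_RA, 8.43, 8.43 and 8.69 in KO, and 11.39, 11.34 and 11.15 in KO_RA. All RA-fed arrays were above all others, and the KO_RA arrays stood below the WT_RA arrays without overlap. The combined change was 3.31 ± 0.18 (SE, adjusted p = 4.51e-06), a 9.90-fold rise, against 4.51 ± 0.18 for RA in wild type mice. The interaction was -1.73 (95% interval -2.28 to -1.18, adjusted p = 0.0566), so the combined change was less than the sum but the departure did not pass the threshold.

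Rarb, the RA receptor whose own gene responds to RA, had a signal of 4.60, 4.85 and 5.10 in WT and of 6.32, 5.82 and 6.52 in KO_RA. The groups did not overlap, but the WT mean lay below the lower quartile of probe sets (4.87 to 5.02). Its combined change of 1.37 ± 0.17 (adjusted p = 0.00157) was close in size to that of RA alone, 1.42 ± 0.17. Trim24, a coregulator of the RARs, rose by 0.96 ± 0.21 (adjusted p = 0.0325), against 2.35 ± 0.21 for RA in wild type mice. The call of Trim24 was absent without WT 1, WT 2, WT 3, KO_RA 2 or KO_RA 3 (adjusted p up to 0.103), and its other probe set changed by 0.28. Pdk4, the kinase that shuts pyruvate out of the mitochondrion, was called only in the combined contrast. Its signal was 4.55, 4.02 and 4.36 in WT, 5.58, 5.68 and 5.07 in WT_RA, 4.97, 5.04 and 4.97 in KO, and 6.57, 5.40 and 6.42 in KO_RA. WT and KO were dim, with means below the lower quartile, and KO_RA overlapped WT_RA through KO_RA 2. The change of 1.82 ± 0.26 (adjusted p = 0.00374) equalled the sum of 1.13 for RA and 0.68 for deficiency, with an interaction of 0.0060 (95% interval -0.81 to 0.82).

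Cyp26a1 and Rarb were also the called genes whose promoter window held a retinoid-type direct repeat. In RefSeq windows of build GRCm38.p6, the 250 bases before the annotated start were searched on both strands for pairs of hexamers in 1 direction, each of them AGGTCA or AGTTCA or GGGTCA or GGTTCA. With 5 bases between the hexamers, 6 of 9887 measured genes with a window matched (0.0607%), and of the 312 called genes with a window, 2 matched. With 1, 2 or 4 bases between them, 15, 8 and 2 genes matched, and 0 of the called genes. The sequences are given for the 120 bases before the start, with the repeat in capitals. The repeat of Cyp26a1 reads on the opposite strand, 32 to 16 bases before the start, and that of Rarb on the gene's strand, 53 to 37 bases before it. A match describes these letters and not a binding site.
Cyp26a1, chr19:37697688-37697807, plus strand: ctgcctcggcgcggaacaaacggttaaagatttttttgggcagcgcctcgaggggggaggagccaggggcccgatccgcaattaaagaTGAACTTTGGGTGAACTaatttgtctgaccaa
Rarb, chr14:16575477-16575596, minus strand: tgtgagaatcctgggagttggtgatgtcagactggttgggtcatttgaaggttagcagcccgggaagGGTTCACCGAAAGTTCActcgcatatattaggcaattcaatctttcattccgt

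Among genes of fatty acid use, the called members were lower in KO_RA with 1 exception, but most members did not pass the test. Of the 22 measured genes of mitochondrial fatty acid oxidation and ketogenesis, 7 fell and 1 rose (36.4% called, beside 3.08% of all genes). A negative change was found in 20, and the median change was -0.39 log2 units. That median was 0.02 for RA alone (-0.08 to 0.09 over the fits without 1 array) and -0.27 for deficiency alone. Among 21 genes of peroxisomal oxidation, 4 fell and 0 rose (19% called), with a median of -0.18. Among 21 PPARα targets outside oxidation, 5 fell and 0 rose (23.8% called). Their median was -0.50, against -0.06 for RA alone and -0.16 for deficiency alone. These single medians were less stable: that of RA was 0.04 without WT_RA 3 and -0.15 without WT_RA 1, and that of deficiency was -0.31 without KO 3. The gene that rose in these lists was Pdk4, which opposes glucose oxidation rather than breaking down fatty acids.

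Acaa1b, a peroxisomal thiolase, had a signal of 11.60, 12.04 and 11.89 in WT, 11.91, 10.91 and 10.92 in WT_RA, 9.85, 8.54 and 9.46 in KO, and 7.93, 7.56 and 8.42 in KO_RA. The KO_RA arrays were below all 9 others. The combined change was -3.88 ± 0.34 (adjusted p = 0.000118), a 14.7-fold fall, of which deficiency alone gave -2.56 and RA alone -0.60. The interaction was -0.72 (95% interval -1.77 to 0.34), so additivity was not rejected. Vnn1, the pantetheinase and a PPARα target, fell by 2.16 ± 0.29 on the log2 scale (adjusted p = 0.00248), from 8.40, 7.62 and 7.33 in WT to 5.77, 6.06 and 5.04 in KO_RA. Its RA change in wild type mice had the opposite sign, 0.56 ± 0.29, and did not pass the threshold. The interaction of Vnn1 was -1.22 (unadjusted p = 0.0119, adjusted p = 0.288).

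Fabp1, the abundant fatty acid carrier of hepatocytes, had a signal of 13.49, 13.64 and 13.55 in WT, 13.48, 12.90 and 12.998 in WT_RA, 13.41, 13.34 and 13.45 in KO, and 12.05, 10.37 and 12.27 in KO_RA. All 3 KO_RA arrays were below the 9 others, with KO_RA 2 lowest. Neither single change was called (-0.43 for RA, -0.16 for deficiency), whereas the combined change was -1.99 ± 0.37 (adjusted p = 0.0135). Without WT 2 the adjusted p was 0.0563, and the change lay between -2.34 and -1.40 over the fits without 1 array. Retsat, the retinol saturase, fell by 1.83 ± 0.28 (adjusted p = 0.00508), again with neither the single changes nor the interaction called. Aldh3a2, which oxidizes fatty aldehydes, fell by 1.63 ± 0.28 (adjusted p = 0.00975), and here deficiency alone gave -1.51. Eci1, an enoyl-CoA isomerase, and Creb3l3, a liver transcription factor of fasting, changed by -0.91 ± 0.13 (adjusted p = 0.00344) and -0.74 ± 0.12 (adjusted p = 0.00637).

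**Figure D2:**
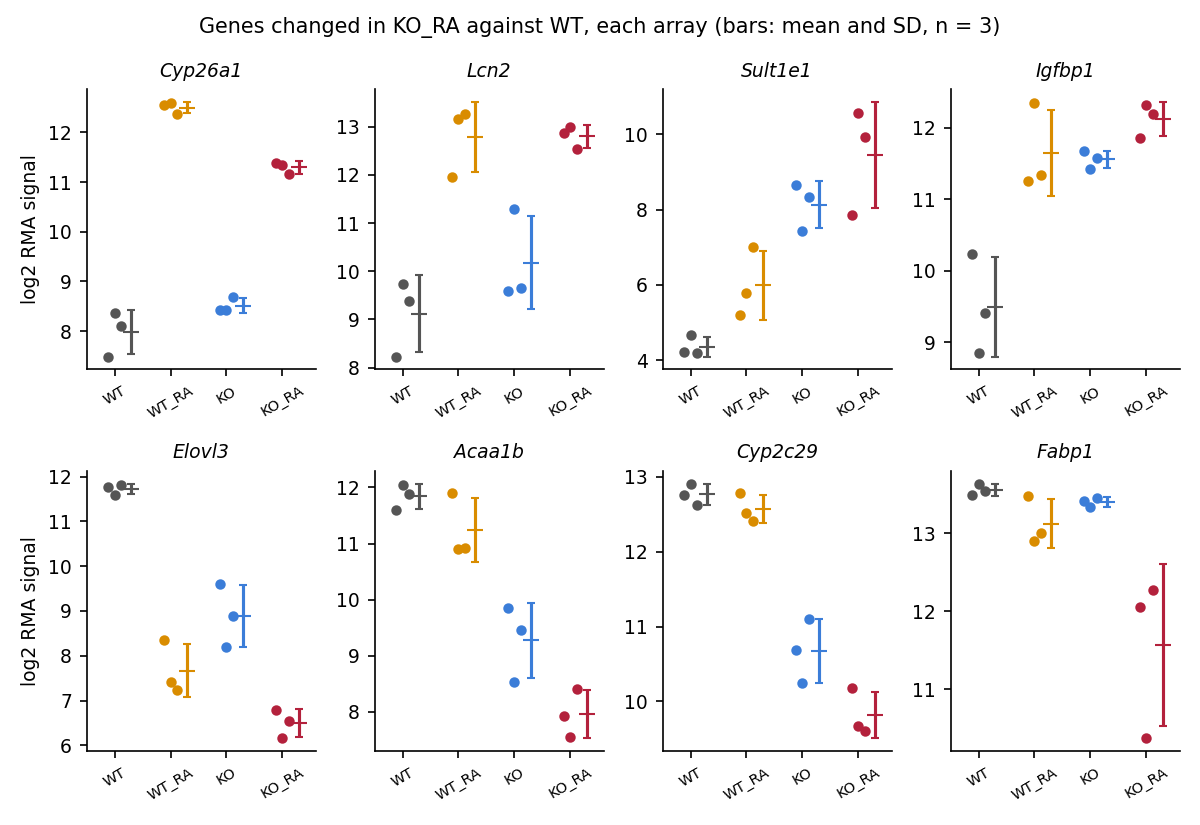
Log2 RMA signal of 8 genes on each of the 12 arrays (points) by group, with the mean and SD of 3 arrays beside them. Cyp26a1 and Lcn2 were high with RA in both genotypes, Acaa1b and Cyp2c29 were low in both KO groups, and the 3 KO_RA arrays of Fabp1 (10.37 to 12.27) lay below the 9 others.

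Enzymes that build and reshape fatty acids did not move one way. Of 17 genes of fatty acid synthesis, 2 rose and 1 fell (17.6% called, beside 3.08% of all genes). Their median of 0.17 changed sign to -0.02 without WT 1, and was 0.43 without WT 2, 0.0098 without KO_RA 1 and 0.46 without KO_RA 2. Elovl3, an elongase of very long chain fatty acids that is higher in male liver, had the largest fall of all genes called. Its signal was 11.76, 11.60 and 11.82 in WT, 8.35, 7.42 and 7.24 in WT_RA, 9.60, 8.20 and 8.88 in KO, and 6.80, 6.16 and 6.55 in KO_RA. The 3 KO_RA arrays were below the other 9, and the combined change was -5.22 ± 0.33 (adjusted p = 1.49e-05), a 37.4-fold fall. The single changes of -4.05 and -2.83 summed to more than this, with an interaction of 1.66 (95% interval 0.64 to 2.69, unadjusted p = 0.00417, adjusted p = 0.242). Elovl2, an elongase of polyunsaturated fatty acids, fell by 1.38 ± 0.12 (adjusted p = 0.000118), with an interaction of 0.06 (95% interval -0.31 to 0.43) around the sum of -0.49 and -0.95. Scd2, a desaturase that adult hepatocytes hardly use, rose from 4.94, 4.78 and 4.85 in WT to 8.17, 7.11 and 9.09 in KO_RA. The change was 3.27 ± 0.45 (adjusted p = 0.0028), the same as for deficiency alone (3.27). The WT signal was below the lower quartile, and 2 other probe sets of Scd2 changed by 2.05 and 0.66.

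Cholesterol synthesis genes nearly all had a positive change in the combination, but few were called. Of 19 measured genes, 18 had a positive change and 1 rose past the threshold, with a median of 0.59 against 0.14 for RA alone and 0.14 for deficiency alone. That median was 0.32 without WT 1 and 0.92 without KO_RA 2. On the arrays, the median deviation of these genes from their own means was -0.89, 0.07 and 0.14 in WT. It was 0.60, -0.06 and 0.73 in KO_RA, so the groups overlapped through KO_RA 2. The genes share these arrays, so their signs are not separate observations. The share called was 5.26%, beside 3.08% of all genes. The single medians changed sign without WT 1 (-0.10 for RA and -0.17 for deficiency), and reached 0.37 for RA without WT 3 and 0.42 for deficiency without KO 1. The gene called was Sqle, squalene epoxidase, with 9.51, 10.36 and 10.46 in WT and 11.66, 11.02 and 11.80 in KO_RA. Its change of 1.39 ± 0.30 (adjusted p = 0.0312) lost its call without WT 1, WT 2, KO_RA 1 or KO_RA 3 (adjusted p up to 0.12).

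Drug and steroid metabolizing enzymes were among the strongest falls and also held the strongest rise. Of 15 Cyp2c and Cyp2j epoxygenase genes, 6 fell and 0 rose (40% called, beside 3.08% of all genes). Their median was -0.48, against -0.01 for RA alone and -0.31 for deficiency alone. Of 30 phase II conjugation enzymes, 7 fell and 2 rose (30% called), and of 10 carboxylesterases 2 fell and 1 rose (30%). Cyp2c29, an epoxygenase under CAR and PXR control, had a signal of 12.76, 12.91 and 12.63 in WT, 12.78, 12.52 and 12.41 in WT_RA, 10.69, 10.25 and 11.10 in KO, and 10.18, 9.67 and 9.61 in KO_RA. The 3 KO_RA arrays were lowest, the KO arrays came next, and WT and WT_RA overlapped. The combined change was -2.94 ± 0.20 (adjusted p = 2.48e-05), against -2.09 for deficiency alone and -0.20 for RA alone, and the interaction was -0.66 (unadjusted p = 0.0406, adjusted p = 0.409).

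Sult1e1, the estrogen sulfotransferase, had the largest rise. Its signal was 4.23, 4.66 and 4.20 in WT, 5.20, 5.78 and 6.99 in WT_RA, 8.64, 7.43 and 8.32 in KO, and 7.87, 10.55 and 9.92 in KO_RA. KO_RA overlapped KO through KO_RA 1, and WT was below the lower quartile of probe sets. The combined change was 5.08 ± 0.61 (adjusted p = 0.00118), and the interaction of -0.31 had an interval from -2.18 to 1.56. The esterases Ces1g and Ces1e, which hydrolyse lipid and drug esters, fell by 2.68 ± 0.35 (adjusted p = 0.00166) and 2.31 ± 0.28 (adjusted p = 0.00133). Ces2a of the same family rose by 2.38 ± 0.40 (adjusted p = 0.00911), less than the 3.16 for deficiency alone, with an interaction of -1.19 (95% interval -2.43 to 0.06). Ugt2b1, a glucuronosyltransferase, fell from 12.64, 12.56 and 12.54 in WT to 11.19, 10.83 and 11.36 in KO_RA, a change of -1.45 ± 0.16 (adjusted p = 0.000566).

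Acute phase genes had changes of like size in the combination and with RA alone. All 36 measured members had a positive change, with a median of 0.68, and 7 rose past the threshold (19.4%, beside 3.08% of all genes). The median was 0.67 for RA alone, -0.0004 for deficiency alone and 0.02 for the interaction. Lcn2, the siderophore-binding lipocalin, had a signal of 8.23, 9.75 and 9.39 in WT, 11.96, 13.16 and 13.26 in WT_RA, 9.60, 11.29 and 9.66 in KO, and 12.86, 13.003 and 12.54 in KO_RA. The RA-fed arrays were above all others, and both RA-fed groups overlapped. The combined change was 3.68 ± 0.49 (adjusted p = 0.00227), against 3.67 ± 0.49 for RA alone. Orm2 and Orm3, which code for orosomucoids, rose by 3.23 ± 0.49 (adjusted p = 0.00468) and 2.31 ± 0.27 (adjusted p = 0.0011). Nfkbiz, a nuclear regulator of NF-κB target genes, rose by 2.51 ± 0.39 (adjusted p = 0.00547). The neutrophil markers had a median change of 0.11 with 0 of 11 called by limma (2 at an unadjusted p under 0.05). The Kupffer cell and macrophage markers, described further on, had 0 of 16 called. Outside these marker lists, the neutrophil protease Prtn3 rose 8.2-fold in KO_RA against WT. The chemokine Cxcl1 rose 7.98-fold (limma adjusted p = 0.0306). The 0 calls therefore hold for the listed markers only, and the part of neutrophils in the acute phase changes was not tested.

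**Figure D3:**
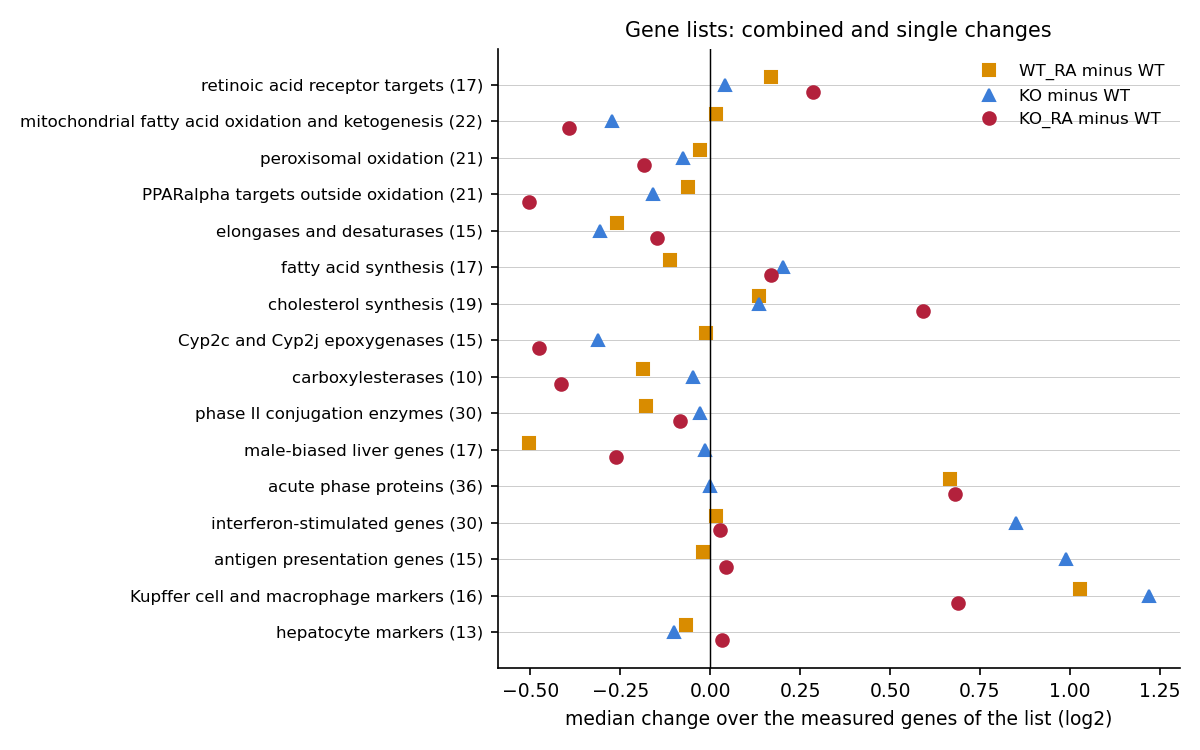
Median log2 change of 16 gene lists (number of measured genes in parentheses) for RA in wild type mice (squares), deficiency on the normal diet (triangles) and the combination (circles), all against the same WT arrays. The median of cholesterol synthesis was 0.59 in the combination (0.32 without WT 1) and 0.14 in each single contrast. Both single medians changed sign without WT 1. Interferon-stimulated genes lay at 0.03 in the combination and 0.85 with deficiency alone.

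Other groups held few called genes each, so their shares, given beside the 3.08% of all genes, rest on few genes. The share was 23.5% for male-biased liver genes (4 of 17) and 15.8% for female-biased ones (2 higher and 1 lower of 19). It was 11.1% for RXR and partner nuclear receptors (1 higher and 1 lower of 18). For the growth hormone and IGF axis it was 10% (1 higher and 1 lower of 20). Bile acid synthesis had 5.56% (1 of 18) and oxidative phosphorylation 2.38% (1 of 42). The lists were chosen with earlier results of these data known. Of 18 RXR and partner nuclear receptors, Rarb rose and Pparg fell. Pparg, the adipogenic PPAR, had a signal of 6.32, 6.63 and 6.48 in WT, 6.57, 6.46 and 6.59 in WT_RA, 6.06, 5.94 and 5.89 in KO, and 5.97, 5.98 and 5.94 in KO_RA. Both KO groups lay below both wild type groups, and the change of -0.51 ± 0.09 (adjusted p = 0.0123, and 0.0561 without WT 2) was that of deficiency alone (-0.51). In the growth hormone and IGF axis, 1 of 20 genes rose (Igfbp1) and 1 fell. This was Igfbp2, which binds IGFs in plasma and fell from 11.94, 10.97 and 11.24 in WT to 7.93, 8.15 and 8.18 in KO_RA. Its combined change of -3.30 ± 0.29 (adjusted p = 0.000118) compared with -3.14 for deficiency alone and -0.43 for RA alone, and additivity was not rejected (interaction 0.27, 95% interval -0.63 to 1.17).

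Among 42 subunits of oxidative phosphorylation, 40 had a negative change, with a median of -0.21 against -0.10 for RA alone and -0.07 for deficiency alone, and 1 was called (17 at an unadjusted p under 0.05). It was Ndufb3 (-0.52 ± 0.12, adjusted p = 0.0365), whose call was absent without WT 1, WT 2, WT 3, KO 3 or any KO_RA array (adjusted p up to 0.125). Of 18 genes of bile acid synthesis, 16 had a negative change (median -0.21, 1 called). Glucose production and glycogen genes (16 measured) and Cyp4 hydroxylases (10 measured) had 0 calls by limma, with 7 and 3 at an unadjusted p under 0.05. Over all genes, 1934 of 12393 had an unadjusted p under 0.05 in the combined contrast. Male-biased liver genes fell in 4 of 17 (Elovl3, Nudt7, Obp2a and Gstp1, a glutathione transferase), with a median of -0.26 that was -0.16 without KO_RA 2 and compared with -0.50 for RA alone. The call of Nudt7, a peroxisomal CoA hydrolase, was absent without WT 1, WT 2, WT 3 or KO_RA 1 (adjusted p up to 0.0721).

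Genes were also sought that stood apart in KO_RA, that is, were called against each of the 3 other groups in 1 direction, whether or not a single change was called. This held for 8 genes (0.0646%), of which 4 were lower (Gas2, Tpmt, Fabp2 and Qpct) and 4 were higher (Tmem184c, Mmp14, Tex261 and Sema6b). As a background, the 3 KO_RA arrays lay outside the other 9 arrays for 468 genes (3.78%), 161 above and 307 below. The count of 8 was 0 without KO 3, 2 without KO_RA 1, and 4 without WT 2 or KO 1. It was 5 without WT_RA 1, WT_RA 2, KO 2 or KO_RA 2, and 9 without WT_RA 3 and KO 1 together, of which 3 were among the 8.

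Tpmt, which methylates thiopurine drugs, had a signal of 9.67, 10.48 and 9.95 in WT, 9.90, 9.98 and 10.42 in WT_RA, 9.92, 9.79 and 9.80 in KO, and 8.47, 8.67 and 8.41 in KO_RA. The first 3 groups overlapped, and the KO_RA arrays lay below all of their arrays. The changes were -1.52 ± 0.19 against WT (adjusted p = 0.00134), -1.59 against WT_RA (adjusted p = 0.000924) and -1.32 against KO (adjusted p = 0.0163). Without KO 3 the last of these had an adjusted p of 0.0633. The interaction was -1.39 (95% interval -1.97 to -0.81, adjusted p = 0.0919), while the single changes were 0.07 and -0.20.

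Gas2, a microfilament-linked protein, had a signal of 8.98, 8.73 and 8.70 in WT, 8.42, 8.56 and 8.44 in WT_RA, 7.89, 7.87 and 8.10 in KO, and 6.95, 6.94 and 7.50 in KO_RA. No group overlapped another, and the levels fell in this order. Deficiency alone was called for it as well (-0.85 ± 0.14, adjusted p = 0.0175, a call absent without WT 1, WT 2 or KO 2), and the combined change was -1.67 ± 0.14 (adjusted p = 0.000118), with an interaction of -0.49 (unadjusted p = 0.0323, adjusted p = 0.383). Fabp2, the intestinal-type fatty acid carrier, fell by 1.32 ± 0.14 (adjusted p = 0.000566), from 8.95, 9.12 and 9.05 in WT to 7.76, 7.49 and 7.92 in KO_RA, with single changes of -0.35 and -0.46 that were not called. Qpct, the glutaminyl cyclase, fell by 0.70 ± 0.09 (adjusted p = 0.00151) to a level near the lower quartile (5.03, 4.90 and 4.93). The calls against KO of Gas2, Fabp2 and Qpct were absent in fits without 1 array (adjusted p up to 0.125, 0.095 and 0.0914), and the same held for the 4 genes that were higher (0.144 for Tmem184c, 0.0941 for Mmp14, 0.167 for Tex261 and 0.123 for Sema6b).

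Of the 4 genes that were higher, Tmem184c, a membrane protein, had a signal of 7.54, 7.81 and 6.75 in WT and of 8.65, 8.73 and 8.73 in KO_RA. It rose by 1.34 ± 0.24 (adjusted p = 0.0126), with single changes of 0.30 and 0.04. Mmp14, a membrane-bound matrix protease, rose by 1.01 ± 0.21 (adjusted p = 0.0237), from 7.08, 6.70 and 6.86 in WT to 8.03, 8.30 and 7.34 in KO_RA. The call was absent without WT 2, WT 3, KO_RA 1 or KO_RA 2 (adjusted p up to 0.098), and the other probe set of Mmp14 changed by 1.16. Tex261 and Sema6b, a semaphorin, rose by 0.51 ± 0.11 (adjusted p = 0.0312) and 0.42 ± 0.08 (adjusted p = 0.0133). The call of Tex261 was absent without any 1 of the 6 arrays compared (adjusted p up to 0.106), and its 2 other probe sets changed by 0.18 and 0.37. The call of Sema6b was absent without WT 2, KO_RA 1 or KO_RA 3 (adjusted p up to 0.0544).

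**Figure D4:**
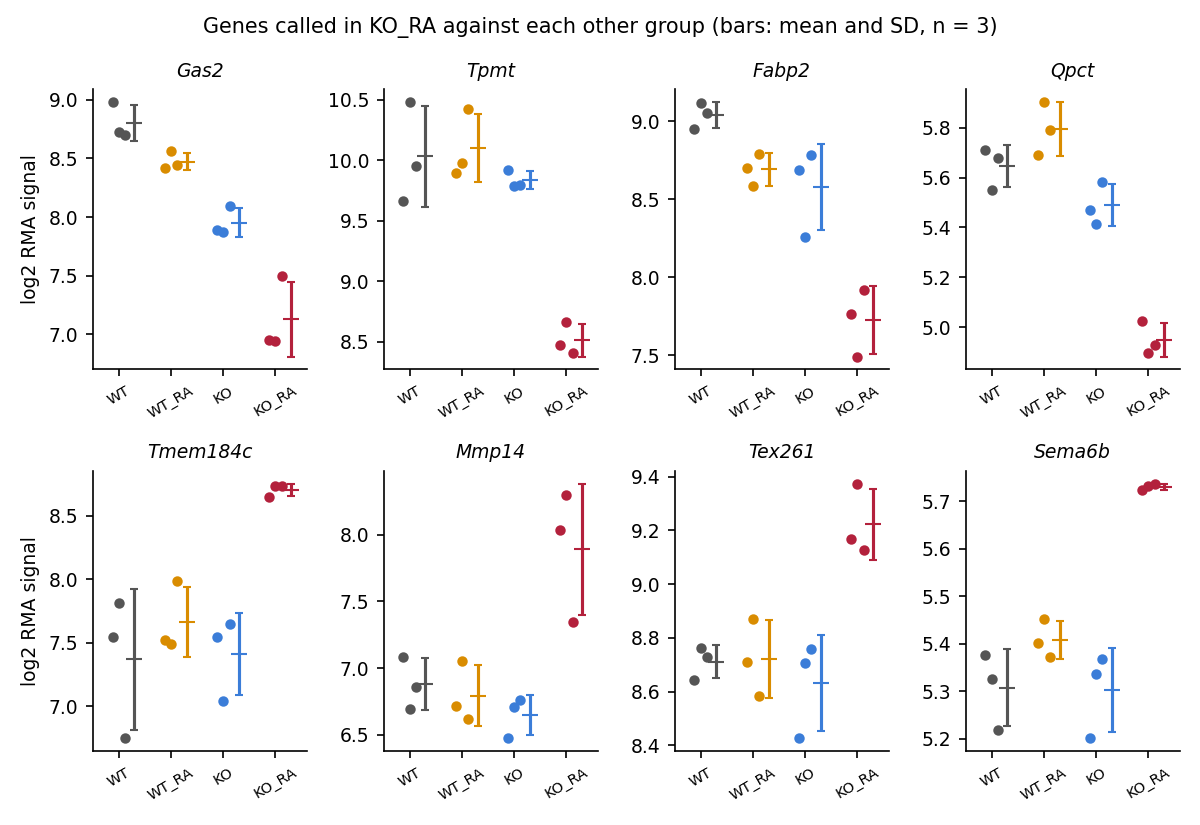
Log2 RMA signal of the 8 genes called in KO_RA against each of the other groups in 1 direction, on each array (points), with the mean and SD of 3 arrays. The signal axis of each panel spans only that gene's values: Sema6b changed by 0.42 log2 units and Gas2 by -1.67.

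Genes that could add up were those called in both single contrasts and in the combination with 1 sign. There were 10 (0.0807%), 4 higher and 6 lower, among them Elovl3, Igfbp1, Apoa4, Aox3, Me1, Rassf3, Slc66a2 and Enpep. For 9 of the 10 the interaction had an unadjusted p under 0.05, and none passed the adjusted threshold. The class held 6 genes without WT 2 or KO_RA 1, 5 without WT_RA 3, 4 without WT 3 or WT_RA 2, and 13 without WT_RA 3 and KO 1, of which 6 were among the 10. The median of the interaction was 0.67 over the class, which has more genes with a fall. Because both single changes were called against the same WT arrays, a high or low value in WT enters both of them and the interaction with it.

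Igfbp1, a carrier of IGFs whose transcript is known to rise in fasting, had a signal of 10.23, 8.85 and 9.41 in WT, 11.25, 12.34 and 11.34 in WT_RA, 11.67, 11.43 and 11.57 in KO, and 11.86, 12.32 and 12.18 in KO_RA. WT was below all others, and the other 3 groups lay close together. The combined change of 2.62 ± 0.33 (adjusted p = 0.00136) was well under the sum of 2.15 and 2.06, with an interaction of -1.58 (95% interval -2.59 to -0.58, adjusted p = 0.244). Its RA call had an adjusted p of 0.0502 without WT 3. Apoa4, an apolipoprotein that rises with triglyceride flux, had a signal of 10.69, 10.38 and 10.34 in WT, 11.54, 11.49 and 11.53 in WT_RA, 12.84, 11.81 and 12.40 in KO, and 12.69, 12.54 and 12.70 in KO_RA. KO_RA overlapped KO, and both were above WT_RA. Its combined change was 2.17 ± 0.20 (adjusted p = 0.000134), with an interaction of -0.76 (unadjusted p = 0.0191). The RA call of Apoa4 (1.05) was absent without WT 2, WT 3 or any WT_RA array (adjusted p up to 0.103).

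Aox3, an aldehyde oxidase that can make retinoic acid from retinal, had a signal of 12.32, 11.72 and 11.98 in WT, 10.55, 10.21 and 10.02 in WT_RA, 10.53, 10.998 and 10.83 in KO, and 9.98, 10.01 and 10.07 in KO_RA. Each single change brought it down, and KO_RA ended just beside WT_RA. The combined change of -1.99 ± 0.17 (adjusted p = 0.000118) compared with -1.75 for RA and -1.22 for deficiency, and the interaction was 0.99 (95% interval 0.46 to 1.51, adjusted p = 0.213). Me1, the cytosolic malic enzyme that supplies NADPH for lipogenesis, fell by 1.47 ± 0.21 (adjusted p = 0.00374). Its place in the class was not stable: the RA call (-0.98, adjusted p = 0.0461) was absent in fits without any 1 of 10 arrays (all but WT_RA 1 and KO_RA 1, adjusted p up to 0.174), and the deficiency call (-1.05, adjusted p = 0.036) without any 1 of 7 (each WT and KO array and KO_RA 3, adjusted p up to 0.133). Its interaction interval held 0 (0.56, from -0.10 to 1.21). The single calls of Slc66a2 and Enpep were also absent in some fits without 1 array (adjusted p up to 0.132 and 0.107), and so was the deficiency call of Rassf3 without KO 3 (0.0615). The 3 genes called in all contrasts with mixed signs were Aqp4, Fmo5 and Rlf. Rlf had a combined change of -0.64 whose call was absent without any of 9 arrays (WT 1, WT 2, WT_RA 1 and each KO and KO_RA array, adjusted p up to 0.174). The RA call of Fmo5 (0.86, adjusted p = 0.0392) was absent without any 1 of 8 arrays (each WT and WT_RA array, KO 3 and KO_RA 2, adjusted p up to 0.133). In Aqp4, a water channel, RA lowered the signal in wild type mice by 1.96 and deficiency raised it by 2.78. The combination (8.37, 7.81 and 9.04) lay at the level of KO (8.48, 8.58 and 8.20), which gave 2.77 ± 0.24 against WT (5.89, 5.48 and 5.55).

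A called single change was not kept in the combination in 43 genes (0.347%). In these a single change was called, the other single change had the opposite sign, and the combined change was not called and was under 0.5 times the size of the larger single change. The single change called was that of RA in 29 genes and of deficiency in 14, and both were called in 0. The opposite single change was small: its median size was 0.136 log2 units beside 0.826 for the larger one, and in 41 of the 43 it was under 0.5 times the larger one. An opposite change of at least 0.5 times the larger one was found in 2. Because the rule sets a small combined change against a large single one, it fixes a difference from the single group and a departure from the sum, so counts of these within the class are a description. KO_RA was called against WT_RA in 20 of the 29 and against KO in 3 of the 14, and the interaction had an unadjusted p under 0.05 for 25 of the 43. Without WT 1, WT 2, WT 3 or WT_RA 2 the class held 28, 15, 20 or 23 genes, and without WT_RA 3 and KO 1 it held 56, of which 24 were among the 43.

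Cyp8b1, the sterol hydroxylase that makes cholic acid, had a signal of 11.47, 12.02 and 11.95 in WT, 10.64, 9.99 and 8.27 in WT_RA, 11.79, 11.81 and 12.01 in KO, and 11.41, 11.66 and 11.49 in KO_RA. The WT_RA arrays were below the 9 others, and the other 3 groups overlapped or lay close together. RA in wild type mice gave -2.18 ± 0.43 (adjusted p = 0.0308) and deficiency alone 0.06, whereas the combined change was -0.30 (95% interval -1.23 to 0.64). KO_RA against WT_RA was 1.89 ± 0.43 (adjusted p = 0.032), and the interaction was 1.83 (unadjusted p = 0.0109, adjusted p = 0.283). The call for RA did not hold once WT 1, WT 2, WT 3, WT_RA 2 or KO_RA 3 was left out (adjusted p up to 0.117), and that of KO_RA against WT_RA was absent without WT_RA 2 or any KO_RA array (adjusted p up to 0.0958, change down to 1.21). Nfil3, a basic leucine zipper repressor, had a signal of 7.57, 7.33 and 7.11 in WT, 8.82, 9.11 and 8.49 in WT_RA, 7.42, 7.13 and 7.41 in KO, and 7.42, 7.40 and 7.82 in KO_RA. RA raised it by 1.47 ± 0.17 in wild type mice (adjusted p = 0.0023), and KO_RA was 1.27 below WT_RA (adjusted p = 0.00248), while deficiency alone gave -0.02 and the combined change was 0.21 (95% interval -0.17 to 0.59). Both of these calls for Nfil3 held in every fit without 1 array.

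Got1, the cytosolic aspartate aminotransferase, had a deficiency change that the combination did not keep. Its signal was 11.84, 11.99 and 11.91 in WT, 11.46, 12.46 and 11.88 in WT_RA, 9.52, 9.96 and 10.63 in KO, and 11.08, 12.48 and 11.12 in KO_RA. The KO arrays were below the 9 others. Deficiency alone gave -1.88 ± 0.37 (adjusted p = 0.0345), RA alone 0.02 and the combination -0.35 (95% interval -1.16 to 0.46), but the rise from KO to KO_RA, 1.53 ± 0.37, did not pass the threshold (adjusted p = 0.0945). The deficiency call did not hold once KO 1, KO 2 or any WT array was left out, with an adjusted p of at most 0.111.

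Interferon-stimulated genes had a positive median with deficiency alone that was not found in the combination. Of 30 measured, 28 had a positive change with deficiency alone (median 0.85, 3 called), and 29 had a negative change from KO to KO_RA. In the combination 0 were called by limma (2 at an unadjusted p under 0.05), and the median was 0.03. Antigen presentation genes were alike, with a median of 0.99 with deficiency alone and 0.04 in the combination, where 0 were called (0 at an unadjusted p under 0.05). On the arrays, the median deviation of the interferon-stimulated genes from their own means was -0.03, 1.43 and 0.50 in KO, against -0.50, -0.21 and 0.02 in WT and -0.19, -0.40 and -0.05 in KO_RA. KO 2 stood highest, and without it the deficiency median was 0.46 for interferon-stimulated genes and 0.37 for antigen presentation genes. Without KO 1 the latter was 1.58. Usp18, an interferon-induced protease that trims ISG15, was called with deficiency alone (2.10 ± 0.33, adjusted p = 0.0112), and its combined change was 0.48 (95% interval -0.24 to 1.20). With WT 1 or WT 2 left out, the adjusted p of that deficiency call rose to as much as 0.0568, past the threshold.

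Kupffer cell and macrophage markers had positive medians in both single contrasts and in the combination. All 16 measured had a positive change with RA alone (median 1.03) and with deficiency alone (median 1.22), and 13 had one in the combination (median 0.69, 0 called and 4 at an unadjusted p under 0.05). Their median deviation was -0.77, -0.79 and -0.64 in WT and -0.11, -0.15 and -0.03 in KO_RA, without overlap, against -0.11, 0.09 and 0.61 in WT_RA and -0.37, 1.59 and 0.43 in KO. The interaction was negative for all 16, with a median of -1.49, and had an unadjusted p under 0.05 for 13. Without KO 2 the deficiency median was 0.70. The marker level was higher than in WT in all 3 other groups, whereas the acute phase median was close to 0 with deficiency alone (-0.0004) and the interferon median close to 0 with RA alone (0.02). The part of the marker level in either group was not tested.

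**Figure D5:**
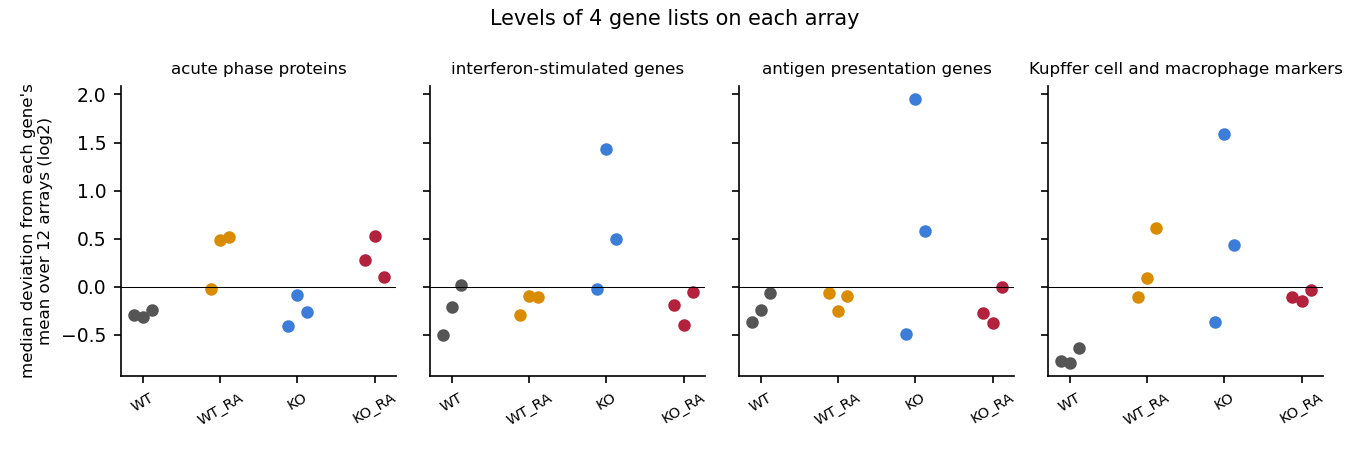
Median deviation of 4 gene lists from each gene's mean over the 12 arrays, in log2 units, on each array. Interferon-stimulated, antigen presentation and Kupffer cell lists reached their highest level on KO 2 (1.43, 1.95 and 1.59) and were near or below 0 on the 3 KO_RA arrays, while the acute phase list was above 0 on the 3 KO_RA arrays.

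Obp2a, an odorant binding protein of the lipocalin family that is male-biased in liver, was the 1 gene called for the interaction. Its signal was 5.28, 5.07 and 5.59 in WT, 7.77, 7.16 and 7.12 in WT_RA, 4.77, 4.59 and 4.53 in KO, and 4.19, 4.36 and 4.28 in KO_RA. The WT_RA arrays were above all others, and the KO_RA arrays were lowest. RA raised it by 2.04 ± 0.17 in wild type mice (adjusted p = 0.000219), whereas RA in KO mice gave -0.36 (adjusted p = 0.376). The combined change was -1.04 ± 0.17 (adjusted p = 0.00752), and KO_RA was 3.08 below WT_RA (adjusted p = 3.03e-06). The interaction was -2.39 (95% interval -2.92 to -1.87, adjusted p = 0.00503). Both KO groups were below the lower quartile of probe sets, so the fall was measured near the floor of the scale.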

How the data were processed

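Liver RNA of 12 mice was measured on 12 arrays. The authors deposited 1 log2 value per probe set and array, and the submitters' processing notes name RMA and Partek 6.11, while the study's methods name MAS5. Of 22690 probe sets, 64 were controls, 20380 had 1 gene symbol, 691 several and 1555 none. Each gene was read from its probe set with the highest mean, which gave 12393 genes. RMA shrinks changes near the floor of the scale, so changes from a dim level are less exact.

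Groups came from the titles, and p-values measure the spread between 3 arrays per group. limma 3.58.1 in R 4.3.3 was fitted to all 12 arrays with 1 coefficient per group (8 residual and 3.98 prior degrees of freedom, two-sided), with Benjamini-Hochberg adjustment over 12393 genes and calls at an adjusted p under 0.05. An exact permutation test of 3 against 3 arrays cannot go below p = 0.1. The calls were tested on simulated data with 200 genes changed in KO_RA alone. Normal noise was drawn separately for each gene and array, so no shift was shared by the genes of an array. The rates that follow hold for such noise. They do not give the rates for the real arrays, where leaving out 1 array moved the counts. At a change of 1 log2 unit, 93.5% were recovered in the combined contrast and 73% for the interaction. Of the combined calls, 7.88% were false. At 2 log2 units these values were 98.5%, 96.5% and 5.74%. The number of arrays limits the precision. A probe set was called dim where its group mean was below the lower quartile.

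By a written rule, named genes were the up to 12 called, non-overlapping genes that rose most and that fell most, up to 4 called members of each of 46 lists, up to 8 of each class, and receptor and retinoic acid receptor target genes, of which the text gives a part. The members and lists were chosen with earlier results of these data known. Rlf was named after its values were seen. The alternatives were a fit of 6 arrays, a replicate block, quantile normalization, a filter on dim probe sets, the mean of probe sets, a variance trend, array weights and leaving out arrays.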

Additional observations from a re-analysis of the deposited data

Results flagged for a closer look

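Obp2a differed in its RA response between the genotypes by the test of that difference, with an interaction of -2.39 on the log2 scale (limma adjusted p = 0.00503). All 3 WT_RA arrays lay above the WT arrays, and all 3 KO_RA arrays lay below the KO arrays. The fall from KO to KO_RA was not called, and both KO groups were below the lower quartile of probe sets. An opposite RA response in KO mice was therefore not shown.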

How the results depend on the processing

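The count of genes called in KO_RA against WT was 367 in a fit of the 6 compared arrays alone and 494 without WT_RA 3 and KO 1. With array weights it was 2476 (1124 higher and 1352 lower), with WT 2 given a weight of 7.12 and the others 0.32 to 2.18, and 380 of the 382 genes were among them. Array weights gave 247 genes for the interaction, 1338 called only in the combination, 60 apart from all 3 groups, 213 called in both single changes and 363 whose called single change was not kept. Over the fits without 1 array, the called genes numbered 159 to 446 (62 to 174 higher and 94 to 272 lower), those of the interaction 1 to 14, those called only in the combination 77 to 294, those apart from all groups 0 to 10, those in both single changes 4 to 14, and those whose called single change was not kept 15 to 61. The interaction was called for 6 genes with the mean of a gene's probe sets, 5 with a variance trend and 12 without WT_RA 3 and KO 1. It was called for 0 by limma without dim probe sets, a filter that removes Obp2a, with 997 genes at an unadjusted p under 0.05. The cause of these moves was not tested.

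With a replicate block the counts were 305 called genes, 283 of them shared, and 2 genes for the interaction. Deviations of arrays with the same number had correlations of mixed sign, from -0.458 to 0.266. These values gave no clear sign that the numbers pair the mice, but they cannot exclude it. Under the alternatives, 60 called results were followed, namely combined changes and the interaction of Obp2a. Of their 1188 values, 1101 kept their call, 87 lost it (73 of these with 1 array left out) and 0 reversed. The KO_RA and WT arrays did not overlap for any called combined change. Leaving out 1 array could therefore not reverse its sign, and the 0 reversals say little about stability. Calls of the single contrasts were not part of these counts. Weak signal near or below the lower quartile limits what can be said of Rarb, Pdk4, Lrat, Scd2, Sult1e1, Qpct and Obp2a.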
